A study of Mus musculus with 16 samples.

Results

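The 80 genes described here encode proteins of the cytosolic ribosome, read in mouse embryos at the 8-cell stage. They were chosen by name alone, as every row whose symbol is Rpl or Rps followed by a number and at most an a, x or l, together with Rplp0, Rplp1, Rplp2 and Rpsa. This gave 80 of 43437 genes, 48 of the large subunit and 32 of the small subunit, and all 80 passed the filter on low values. Some ribosomal proteins have other names, such as Fau, Gnb2l1, Rps3a1 and Rpl36al, and were kept as a separate list, while Rpl13 was not analysed here.

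The study depleted the transcription factors Tfap2c and Tead4 by injecting double-stranded RNA (dsRNA) into the zygote, which destroys the matching mRNA. The 4 groups received dsRNA against GFP (the control), Tfap2c, Tead4, or Tfap2c and Tead4 together (the double knockdown). Each group held 4 libraries, 2 from each of crosses A and B (A1, A2, B1, B2, and 4 values below follow this order), and each was made by Smart-seq2 from the polyadenylated RNA of 10 pooled embryos, about 80 cells. In cross A the mothers were C57BL/6J×CBA/J hybrids, and in cross B C57BL/6J×DBA/2J hybrids. Fathers were labelled in both crosses as hybrids of C57BL/6J and a DBA strain whose number counts up from sample to sample (DBA/2J, DBA/3J and so on), which was not taken as a strain difference. All embryos were injected, grown in KSOM medium and stripped of the zona pellucida with acidic Tyrode solution, the controls included. The labels name no separate matings or injections behind the libraries of a group, so the p-values reflect how pools differ, which may be technical. Values are FPKM, which scale a gene's fragments to the length of its transcripts and to the total of the library, and the read depth behind them is unknown. In such pools, fewer cells of a type and less RNA per cell cannot be told apart.

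Ribosomal proteins join the ribosomal RNAs in the nucleolus to form the large subunit, which makes the peptide bond, and the small subunit, which reads the mRNA. Their mRNAs are among the most abundant in growing cells and usually start with a run of pyrimidines, the terminal oligopyrimidine (TOP) tract, through which mTOR and Larp1 set their translation. Free ribosomal proteins, above all Rpl5 and Rpl11, can bind Mdm2 and stabilise the Trp53 protein. In the mouse embryo, ribosome production resumes with the activation of the embryonic genome and rises through cleavage.

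Sequence around the annotated start was read for the 59 of 80 genes with an entry in the set of start sequences used here (RefSeq, build GRCm38.p6). A run of at least 8 pyrimidines on the gene's strand, between 25 bases before and 50 bases after a start, was found in 47 of these 59 genes (79.7%), against 8166 of 26966 other genes (30.3%). Counted by start, 69.0% of the ribosomal protein starts and 27.2% of all 32851 starts had such a run. The letters CCGGAAG, the core bound by ETS factors such as Gabpa, lay on either strand within the 300 bases around a start of 25 of the 59 genes (42.4%) and of 9.86% of the other genes. By start, these were 36.6% of ribosomal protein starts and 8.86% of all starts. On the other strand these letters read CTTCCGG, which can overlap a pyrimidine run. The letters TATAAA on the gene's strand were in 5 of the 59 genes (8.47%) and in 9.78% of the others, or 7.04% and 8.32% by start.

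The windows below run from 35 bases before to 25 bases after the outermost start listed, on the gene's strand, with the longest run of at least 6 pyrimidines in capitals. The first 6 were picked by hand as examples with a run at or near the start, so they do not stand for the family. Some of them differed between the crosses, as did Rpl10l and Rpl27, which are shown further down without such a run. The next 3 are genes that were lower, and the last 3 genes that were higher, after Tfap2c depletion. Rps29 and Rps4l, the other genes called there, had no entry in this set of sequences.
Rps6: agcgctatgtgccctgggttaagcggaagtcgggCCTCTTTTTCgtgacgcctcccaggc
Rpl35: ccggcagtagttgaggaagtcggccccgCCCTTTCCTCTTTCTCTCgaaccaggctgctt
Rplp2: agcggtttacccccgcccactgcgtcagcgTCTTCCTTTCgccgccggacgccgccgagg
Rpl38: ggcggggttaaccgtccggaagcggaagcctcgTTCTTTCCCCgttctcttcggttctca
Rpl28: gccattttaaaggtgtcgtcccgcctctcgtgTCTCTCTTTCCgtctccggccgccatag
Rps26: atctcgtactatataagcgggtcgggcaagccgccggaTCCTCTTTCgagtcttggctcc
Rpl22: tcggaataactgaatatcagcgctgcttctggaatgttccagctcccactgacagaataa
Rps16: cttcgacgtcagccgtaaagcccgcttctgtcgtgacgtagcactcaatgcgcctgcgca
Rpl10l: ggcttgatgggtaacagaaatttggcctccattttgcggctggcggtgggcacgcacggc
Rps23: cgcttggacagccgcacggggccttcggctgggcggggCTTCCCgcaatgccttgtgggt
Rpl27: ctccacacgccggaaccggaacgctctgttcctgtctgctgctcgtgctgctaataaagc
Rps28: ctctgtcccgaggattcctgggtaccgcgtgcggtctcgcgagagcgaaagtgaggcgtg
Rpl35 held the longest run of these windows, 18 bases. Rpl22, Rps16 and Rpl10l of the lower genes and Rpl27 and Rps28 of the higher genes had no run of 6 in the window, and Rps23 had one of 6. Rps23 is still among the 47 genes with a run of at least 8, which does not lie whole in the window shown. Rpl22, Rps16, Rpl10l, Rpl27 and Rps28 are among the 12 genes without such a run. The starts are annotated and were not measured in these embryos. A window without a run thus does not show that an mRNA lacks a TOP tract. For Rpl22 a second start is listed further inside the gene and is not shown. The median change after Tfap2c depletion, on the log2 scale, was 0.054 over the 47 genes with a run of 8 and 0.050 over the 12 without. On GRCm38.p6 the windows lie at chr4:86857343-86857402 (Rps6, minus strand), chr2:39005107-39005166 (Rpl35, minus), chr7:141447616-141447675 (Rplp2, plus), chr11:114668545-114668604 (Rpl38, plus), chr7:4792930-4792989 (Rpl28, plus), chr10:128626482-128626541 (Rps26, minus), chr4:152324401-152324460 (Rpl22, plus), chr7:28350654-28350713 (Rps16, plus), chr12:66284377-66284436 (Rpl10l, minus), chr13:90923087-90923146 (Rps23, plus), chr11:101442210-101442269 (Rpl27, plus) and chr17:33824538-33824597 (Rps28, minus).

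The labels and libraries were checked first. Relative to the control, Tfap2c mRNA was at 44.3% after Tfap2c dsRNA alone and at 45.3% in the double knockdown, and Tead4 mRNA at 15.7% and 19.5% in the Tead4 and double knockdowns (exact two-sided permutation p = 0.0286 each, the smallest that 4 against 4 allows). Tead4 mRNA was also lower after Tfap2c dsRNA alone, at 58.2% of the control (19.0 to 37.4 FPKM against 41.8 to 58.4 FPKM, exact two-sided permutation p = 0.0286), while Tfap2c mRNA was at 97.4% after Tead4 dsRNA alone, inside the control range. A library held 10049 to 10504 genes with at least 1 FPKM. Of 10 markers of the 8-cell embryo, 9 had a mean of at least 1 FPKM, against 0 of 6 sperm markers, 1 of 8 cumulus cell markers (Cyp11a1, Foxl2, Inha and Ptx3 at 0 in all libraries) and 2 of 6 blood markers (Hbb-bs, Hbb-bt and Ptprc at 0 in all). The summed 8-cell markers, which include both targets, were 8046 to 8952 FPKM in the control, 5664 to 6940 in the Tfap2c knockdown, 7665 to 8534 in the Tead4 knockdown and 5949 to 7206 in the double knockdown. The summed blood markers were 9.86 to 26.8 FPKM in the control, 29.3 to 63.0, 20.3 to 50.9 and 40.7 to 77.7 FPKM in the same order of knockdowns. Cumulus markers summed to 11.1 to 22.1 FPKM in the control, 21.2 to 29.8, 13.6 to 24.3 and 19.7 to 25.5 FPKM. The 7 markers of the 2-cell stage summed to 11.1 to 58.5 FPKM in 15 libraries and to 348.7 FPKM in double knockdown B1. The part of these lists in the changes described here was not tested.

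One control library, GFP A2, was low in most of these genes. It had the lowest value of the 4 control libraries for 60 of the 80 genes, against 4 for GFP A1, 13 for GFP B1 and 3 for GFP B2. Its summed ribosomal protein FPKM was 94392, where the other 15 libraries held 99644 to 116509, and mitochondrial genes took 12.1% of its FPKM, the highest share of the 16 libraries. The FPKM of all genes summed to 806229 in GFP A2, in a range of 799260 to 874436. Of the non-mitochondrial FPKM the 80 genes took 13.3% in GFP A2, and 13.2% in Tfap2c knockdown B1, the lowest library by this measure. Counts of called genes against the control are therefore given with and without it, and for each gene called there it is 1 of the libraries left out in turn. It was singled out by low values of these same genes, so leaving it out raises the control level of most of them. Fewer higher calls and more lower calls without it follow from that choice and are no separate evidence.

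Ribosomal protein mRNAs took 11.7% to 13.7% of all FPKM in the 16 libraries. The share was 12.7 ± 0.826% in the control (SD, n = 4), 13.1 ± 0.676% in the Tfap2c knockdown, 12.8 ± 0.687% in the Tead4 knockdown and 12.6 ± 0.418% in the double knockdown, and the ranges of all groups overlapped. Without GFP A2 the control share was 13.1 ± 0.563% (SD, n = 3). The 48 large subunit genes together stood at 1.28 ± 0.0101 times the 32 small subunit genes in the control, at 1.31 ± 0.0239 times in the Tfap2c knockdown, 1.30 ± 0.0380 times in the Tead4 knockdown and 1.35 ± 0.0298 times in the double knockdown. The ratio lay between 1.27 and 1.29 in the control libraries and between 1.32 and 1.39 in the double knockdown, with no overlap. Rpl41 alone took 0.860 ± 0.0908% of all FPKM in the control (0.724% in GFP A2) and 0.955 ± 0.0985% in the double knockdown. All large subunit genes together took 7.14% and 7.26% in these groups, and the small subunit genes 5.59% and 5.39%. The part of Rpl41 in this separation was not tested. Without GFP A2 the control ratio was 1.27 ± 0.00267 (SD, n = 3). These sums are described without a test.

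**Figure D1:**
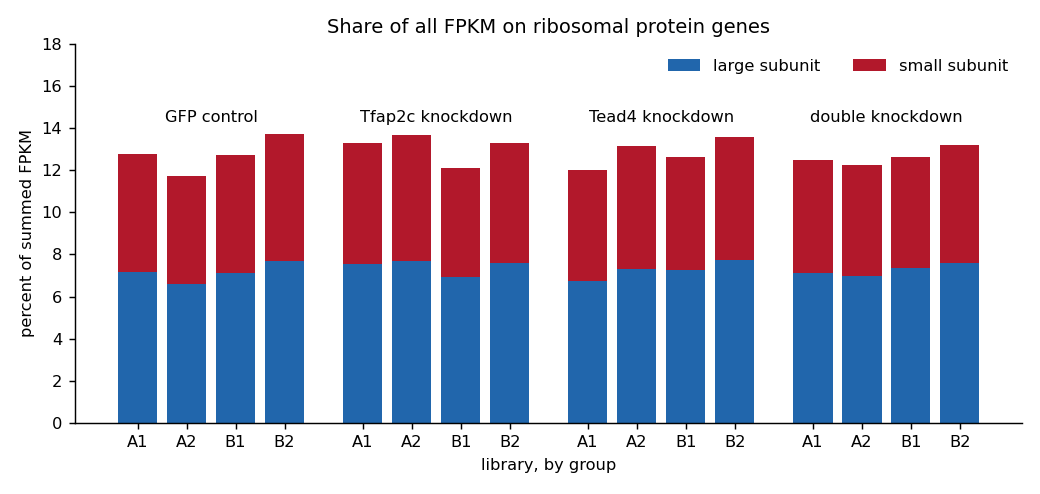
Share of the summed FPKM of each library on 48 large subunit genes (blue) and 32 small subunit genes (red), with libraries A1, A2, B1 and B2 of each group side by side. All 16 bars end between 11.7% and 13.7%, and GFP A2 is the lowest.

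Among all genes, 30 of the 100 highest and 63 of the 200 highest by mean FPKM were ribosomal protein genes. The mean over 16 libraries was at least 500 FPKM for 71 of the 80 genes and at least 1000 FPKM for 47, with a median of 1224 FPKM and quartiles of 781 and 1655 FPKM. Rpl41, which encodes the smallest ribosomal protein, was the highest of the 80 in all 16 libraries and ranked 10th among all genes, at 7806 ± 887 FPKM (SD, n = 16). Further down, the ranges of mean ± SD overlapped for Rps24 (2546 ± 137 FPKM), Rps27 (2370 ± 214 FPKM) and Rps14 (2344 ± 136 FPKM).

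The lowest 2 genes were relatives of ordinary ribosomal proteins that are known from single tissues. Rpl3l, the striated muscle form of Rpl3, was the lowest in all 16 libraries, between 0.548 and 1.98 FPKM, while Rpl3 itself stood at 988.2 ± 97.7 FPKM. Rpl10l, an intronless gene that stands in for X-linked Rpl10 in male germ cells, was second lowest in all 16 libraries, at 98.8 ± 22.3 FPKM, between 2.51% and 6.94% of Rpl10. Next came Rpsa (162 ± 18.3 FPKM), known as a laminin receptor too, Rpl37 (281.5 ± 20.3 FPKM) and Rpl12 (343.7 ± 32.4 FPKM), which encode ordinary subunit proteins. Other relatives stood higher. Rpl39l, best known from testis, reached 42.5% to 68.4% of X-linked Rpl39. Rps4l, an autosomal relative of X-linked Rps4x, reached 24.2% to 40.1% of it. Rps27l, a Trp53 target in other cells, stood at 1521 ± 192 FPKM, above the median of the 80, and at 50.9% to 81.8% of Rps27.

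**Figure D2:**
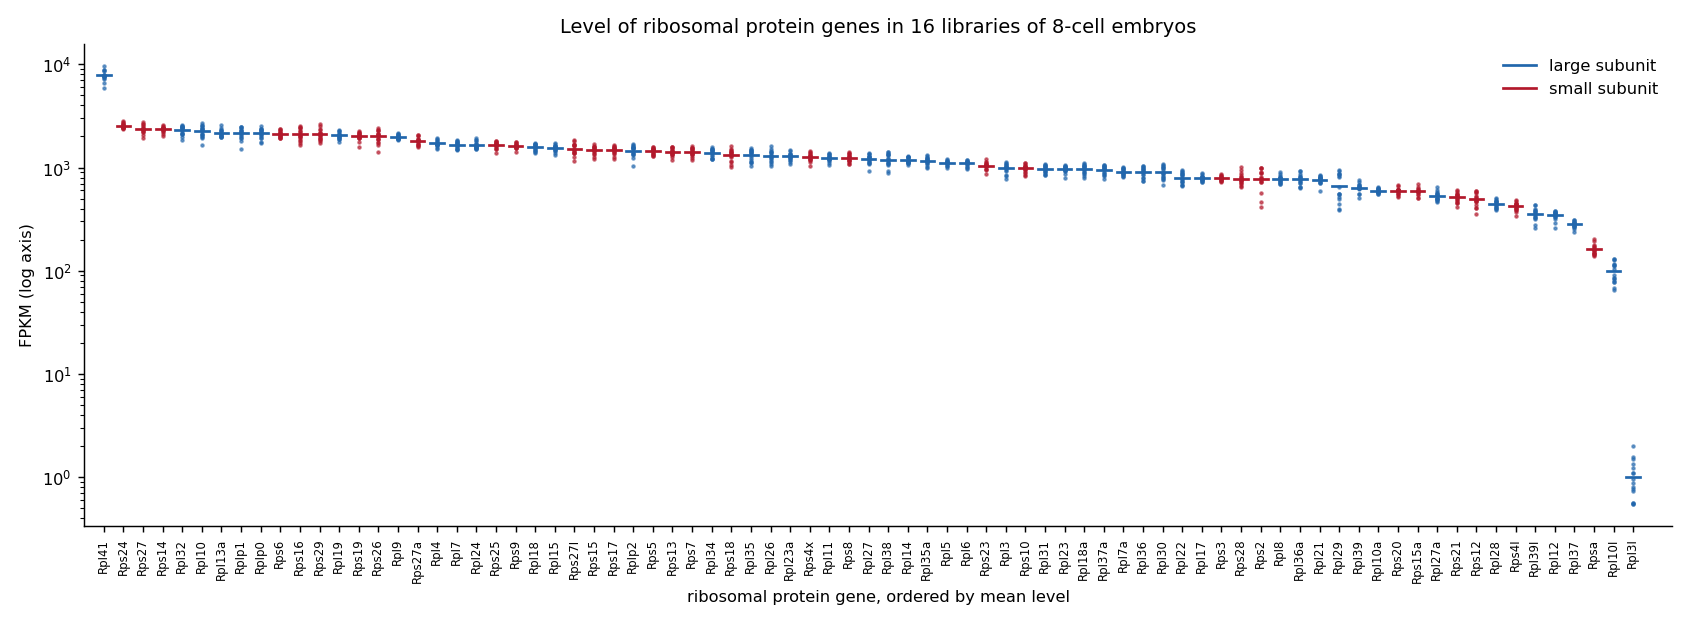
FPKM (log axis) of the ribosomal protein genes named in the plot in 16 libraries (points) with the mean (line), ordered by mean, large subunit in blue and small subunit in red. Rpl41 stands above the rest, Rpsa, Rpl10l and Rpl3l below, and most points of a gene lie close together.

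Some reads of these genes can be placed on processed pseudogenes of nearly the same sequence, so levels of single genes are uncertain to at least the extent given here. The table held 253 rows named as ribosomal protein pseudogenes, 247 of them named after 56 of the 80 genes, and the 253 rows took 0.730% to 0.920% of all FPKM. Pseudogenes held 48.2% of the FPKM of Rps19 and its pseudogenes, 31.4% for Rpl36, 31.2% for Rpsa and 31.0% for Rpl27, and over 10% for 16 genes in all; Rps19 and Rpl36 were singled out after their values were seen. Among genes named below the share was 22.2% for Rps6, 16.2% for Rps2, 6.41% for Rps23, 5.74% for Rps16 and 5.24% for Rpl10. It was under 1% for Rps29, Rpl22, Rps4l and Rpl29. Only pseudogenes named after a ribosomal protein gene were counted, so these shares can be too low.

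The order of the 80 levels was nearly the same in every library. Spearman's rho between libraries over the 80 genes was 0.943 to 0.995 for the 120 pairs, a description of libraries that share gene lengths and annotation. The highest library was at most 1.5 times the lowest for 61 of the 80 genes. It was more than 2 times the lowest for Rpl3l, Rps2 and Rpl29. After group and cross were taken out, the median standard deviation on the log2 scale was 0.114 for the 80 genes, against 0.227 for all 11422 genes tested and 0.134 for the 230 other genes with a mean of at least 500 FPKM. Among the control libraries Rpl29 (SD 0.40 on the log2 scale), Rps26 (0.36) and Rplp1 (0.32) varied most, and Rpl7a (0.037), Rps9 (0.042) and Rpl5 (0.049) varied least. These control SDs hold the difference between crosses too. With group and cross taken out over 16 libraries, the SD was 0.20 for Rpl29, 0.13 for Rps26 and 0.18 for Rplp1. Rpl5, a partner of Mdm2, stood at 1148, 1140, 1102 and 1197 FPKM in the control.

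The Tfap2c knockdown moved few of these genes, and none by more than 0.5 on the log2 scale. With limma on log2(FPKM + 1) and Benjamini-Hochberg adjustment over 11422 genes, 8 of the 80 genes (10%) passed an adjusted p of 0.05, where 29.6% of all genes did (16.3% higher, 13.2% lower) and 30.4% of the 230 other genes with a mean of at least 500 FPKM. Rps23, Rps4l, Rpl27 and Rps28 were higher and Rps29, Rps16, Rpl22 and Rpl10l lower. The median change of the 80 was 0.043, and that of all genes tested 0.061. The count fell to 5 without GFP A2, with 1 gene higher and 4 lower.

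Rps29, a zinc-binding small subunit protein, showed the lowest p of the 8. Rps29 (ENSMUSG00000034892, chromosome 12, 69157722 to 69159186 of GRCm38.p6) stood at 2344, 2010, 2522 and 2661 FPKM in the control and at 2082, 1891, 1859 and 2060 FPKM in the Tfap2c knockdown. Each Tfap2c knockdown library was below the mean of the control, although A1 and B2 lay above GFP A2. The change was -0.27 (SE 0.069, adjusted p = 0.00913 in limma), and it stayed under the threshold in each of 16 fits that left out 1 library, with an adjusted p of at most 0.0358.

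Rps16 encodes a small subunit protein whose tail reaches the decoding centre (chromosome 7, 28350689 to 28352698). It stood at 2405, 1930, 2459 and 2532 FPKM in the control and at 2041, 1984, 1660 and 2015 FPKM in the Tfap2c knockdown. Only GFP A2 overlapped the knockdown range. The change was -0.27 (SE 0.087, adjusted p = 0.0287 in limma). Leaving out GFP A1 ended the call (adjusted p = 0.0835), and so did leaving out GFP B1 (0.0693), GFP B2 (0.0850), Tfap2c knockdown B1 (0.0874) or Tfap2c knockdown B2 (0.05002). The call was also lost without a filter on low values (0.0708) and without cross in the model (0.0511).

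Rpl22 is an RNA-binding protein of the large subunit that most cells can do without, known for its role in lymphocyte development (chromosome 4, 152324436 to 152334082). It stood at 873.6, 772.1, 895.0 and 939.5 FPKM in the control and at 839.0, 726.9, 739.2 and 661.9 FPKM in the Tfap2c knockdown. The knockdown library A1 lay inside the control range and the other 3 below it. The change was -0.23 (SE 0.079, adjusted p = 0.0395 in limma), and the adjusted p was 0.0747 to 0.142 without GFP A1, GFP B1, GFP B2 or any 1 of Tfap2c knockdown A2, B1 and B2. The call was also lost without a filter on low values (0.0786), with quantile normalization (0.102) and without cross in the model (0.0629). Its paralogue Rpl22l1, outside the name rule, had a change of 0.10 (adjusted p = 0.676).

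Rpl10l was at 111.2, 81.3, 115.6 and 129.9 FPKM in the control and at 65.7, 68.3, 114.4 and 90.1 FPKM in the Tfap2c knockdown. Within each cross both knockdown libraries lay below both control libraries, and across crosses the groups overlapped. The change was -0.38 (SE 0.10, adjusted p = 0.0100 in limma), with an adjusted p of at most 0.0386 in the fits that left out 1 library. Without cross in the model the adjusted p was 0.226.

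Of the higher genes, Rps4l stood at 409.7, 367.5, 394.2 and 342.6 FPKM in the control and at 483.7, 451.7, 416.6 and 472.1 FPKM in the Tfap2c knockdown, with no overlap. Its change was 0.27 (SE 0.078, adjusted p = 0.0171 in limma), and the call was lost without GFP B2 (adjusted p = 0.0644) or Tfap2c knockdown A1 (0.0509). Rps23, at the decoding centre, rose from 980.9 ± 98.3 to 1135 ± 60.1 FPKM without overlap (change 0.21, adjusted p = 0.0375). Rps28 went from 759.6 ± 85.1 to 906.6 ± 84.8 FPKM (change 0.26, adjusted p = 0.0307) and Rpl27 from 1116 ± 137 to 1276 ± 61.4 FPKM (change 0.20, adjusted p = 0.0338), both with overlap. Without GFP A2 these 3 changes fell to 0.14, 0.18 and 0.15, and the adjusted p was 0.115, 0.0988 and 0.105. The 3 calls were also lost without GFP B1 (0.0870, 0.0616 and 0.0718), Tfap2c knockdown A1 (0.0954, 0.0935 and 0.0983) or Tfap2c knockdown B2 (0.0823, 0.0837 and 0.0602), and those of Rps23 and Rpl27 without Tfap2c knockdown A2 (0.0570 and 0.0684). With median-ratio rescaling of the libraries all 4 higher calls were lost, with adjusted p of 0.0781 for Rps4l, 0.174 for Rps23, 0.101 for Rps28 and 0.170 for Rpl27. The calls of Rps23, Rps28 and Rpl27 were lost without a filter on low values too (0.0720, 0.0648 and 0.0622), and those of Rps23 and Rpl27 without cross in the model (0.0623 and 0.181).

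The median change of the 80 genes had opposite signs in crosses A and B in this comparison. In cross A the median change of the Tfap2c knockdown against the control was 0.17, with 75 of 80 genes above 0. In cross B it was -0.088, with 19 of 79 above 0, since Rpl3l did not pass the filter there. Over all genes tested in each cross the medians were 0.10 (A) and 0.011 (B). The median log2 level of the 80 genes itself varied between libraries with an SD of 0.096 once group and cross were taken out. Against GFP A1 alone the cross A median was 0.062, with 62 of 80 above 0. The difference of the changes between crosses was tested gene by gene, and 0 of the 80 passed (0.508% of all genes did, 4 of the 80 had an unadjusted p under 0.05, and the lowest adjusted p was 0.191, for Rpl14). Rps29, Rps16, Rpl22 and Rpl10l were below the control in both crosses, by -0.13, -0.098, -0.073 and -0.50 in cross A and by -0.40, -0.45, -0.39 and -0.27 in cross B. Rps4l had changes of 0.27 in each cross, Rps23 0.29 and 0.14, Rps28 0.39 and 0.12, and Rpl27 0.29 and 0.11 in A and B.

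The Tead4 knockdown left the 80 genes close to the control. With limma 0 of the 80 passed, against 6.13% of all genes (3.35% higher, 2.78% lower), and 1 had an unadjusted p under 0.05. The median change was 0.0095 and the range -0.13 to 0.31. The lowest p-values belonged to Rpl27 (change 0.14, adjusted p = 0.230), Rps4l (0.16, adjusted p = 0.240) and Rps29 (-0.12, adjusted p = 0.364). No gene of the 80 separated the 4 Tead4 knockdown libraries from the 4 control libraries, where 9.67% of all genes did (6.07% higher, 3.6% lower). All the alternatives run, and each fit without 1 library, also gave 0.

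The double knockdown lowered 3 of the 80 genes and raised 0, where 25.1% of all genes passed (13.9% higher, 11.3% lower). The 3 were Rps29, Rps16 and Rpl22, and the median change of the 80 was -0.022 against 0.046 for all genes tested. Rps29 stood at 1724, 1795, 1921 and 1913 FPKM, all below each control library (change -0.37, SE 0.069, adjusted p = 0.00125 in limma). Rpl22 stood at 681.0, 716.0, 680.2 and 771.4 FPKM, also all below the control (change -0.29, SE 0.079, adjusted p = 0.0156). Rps16 stood at 1745, 1804, 1848 and 2058 FPKM, where B2 overlapped GFP A2 (change -0.32, SE 0.087, adjusted p = 0.0150).

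Without GFP A2 the double knockdown gave 8 lower and 0 higher genes, where 22.1% of all genes passed. Without GFP B2 it gave 1. Rps29 passed in all 16 such fits, with an adjusted p of at most 0.00560. Rpl22 was lost without GFP B2 (adjusted p = 0.0543) or double knockdown B1 (0.0516), and Rps16 without GFP A1 (0.05002) or GFP B2 (0.05004). By cross the changes of Rps29, Rps16 and Rpl22 were -0.30, -0.28 and -0.23 in A and -0.43, -0.36 and -0.34 in B.

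Against the Tead4 knockdown, the double knockdown adds Tfap2c dsRNA in embryos that all carry Tead4 dsRNA. This comparison shares no library with that of the Tfap2c knockdown and the GFP control. It gave 4 of 80 genes lower and 0 higher (23.7% of all genes passed, 10.9% higher and 12.9% lower), with a median of -0.036. Rps29, Rps16 and Rpl22 were again lower, with changes of -0.25 (adjusted p = 0.0154), -0.29 (adjusted p = 0.0276) and -0.30 (adjusted p = 0.0131), and the fourth was Rps2. The 3 genes lower in both comparisons were 3 of the 8 called in the first and 3 of the 4 called in the second. Over all genes tested, 1786 were called in the same direction in both, of 3377 and 2712.

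In the Tead4 knockdown, Rps29 stood at 2137, 2144, 2177 and 2286 FPKM, Rps16 at 2145, 2265, 2270 and 2395 FPKM and Rpl22 at 825.3, 867.0, 881.7 and 928.4 FPKM. Each of these values was above all 4 double knockdown values of the same gene. Rps29 and Rpl22 kept an adjusted p of at most 0.0458 and 0.0448 in the 16 fits without 1 library. Rps16 was lost without Tead4 knockdown A2 (0.0653) or B2 (0.0730), or without double knockdown A1 (0.0744), A2 (0.0587) or B1 (0.0702), without a filter on low values (0.0700) and without cross in the model (0.0516). Across the 80 genes, 44 (55.0%) had changes of the same sign in both comparisons, and 73.4% of all 11422 genes did. Spearman's rho of the 2 sets of changes was 0.52 over the 80 genes and 0.66 over all genes, as a description, since genes of a library are not independent.

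Rps2, which lines the mRNA entry channel of the small subunit, differed within the double knockdown itself. It stood at 410.4 and 467.5 FPKM in double knockdown A1 and B1, and at 733.3 and 787.7 FPKM in A2 and B2. The Tead4 knockdown stood at 727.6, 907.4, 875.3 and 991.2 FPKM, the Tfap2c knockdown at 892.1, 984.4, 803.5 and 999.1 FPKM, and the control at 774.1, 560.3, 780.8 and 724.1 FPKM. Double knockdown A2 and B2 thus lay inside the range of the Tead4 knockdown and A1 and B1 below it, and all Tfap2c knockdown libraries lay above the control. The change from the Tead4 to the double knockdown was -0.59 (SE 0.18, adjusted p = 0.0278 in limma), and the call was lost without double knockdown A1 (change -0.43, adjusted p = 0.0975), B1 (-0.46, 0.0952) or Tead4 knockdown A2 (0.0708), B1 (0.0508) or B2 (0.0785), and without a filter on low values (0.0805). Without 1 of double knockdown A1, B1 or Tead4 knockdown A2, B2 the count for this comparison was 2.

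**Figure D3:**
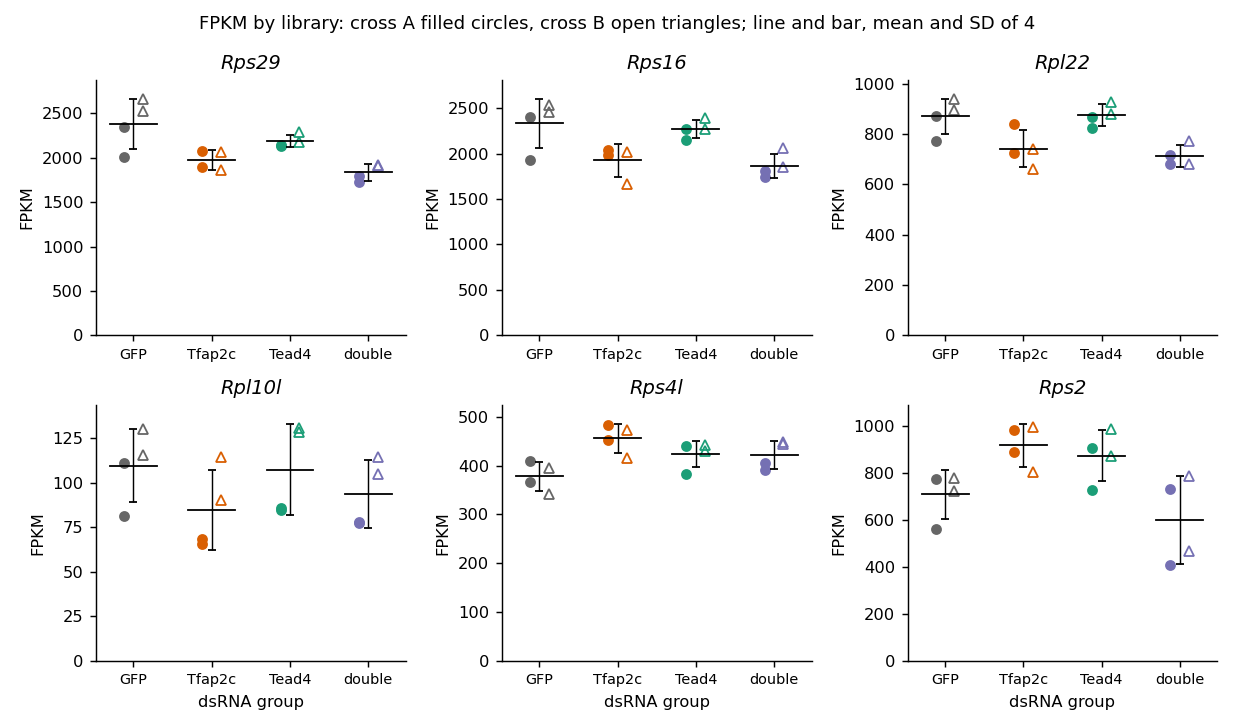
FPKM of 6 genes in each library, by dsRNA group (GFP control, Tfap2c, Tead4 and double knockdown), with filled circles for cross A, open triangles for cross B, and the mean and SD of 4 libraries in black. Rps29, Rps16 and Rpl22 are lower in the groups with Tfap2c dsRNA, Rpl10l differs by cross as well, Rps4l is highest in the Tfap2c knockdown, and Rps2 falls apart within the double knockdown.

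Between the double and the Tfap2c knockdown 0 of the 80 genes passed in limma (0.14% of all genes did, 0.035% higher and 0.105% lower, and 5 of the 80 had an unadjusted p under 0.05). The part of the double knockdown that is not the sum of the single knockdowns also gave 0 of the 80 (0.753% of all genes, 0.385% higher and 0.368% lower, 3 of the 80 at an unadjusted p under 0.05). Rps2 had the lowest p there (-0.97, adjusted p = 0.103), and it passed without double knockdown A2, where the count was 1.

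**Figure D4:**
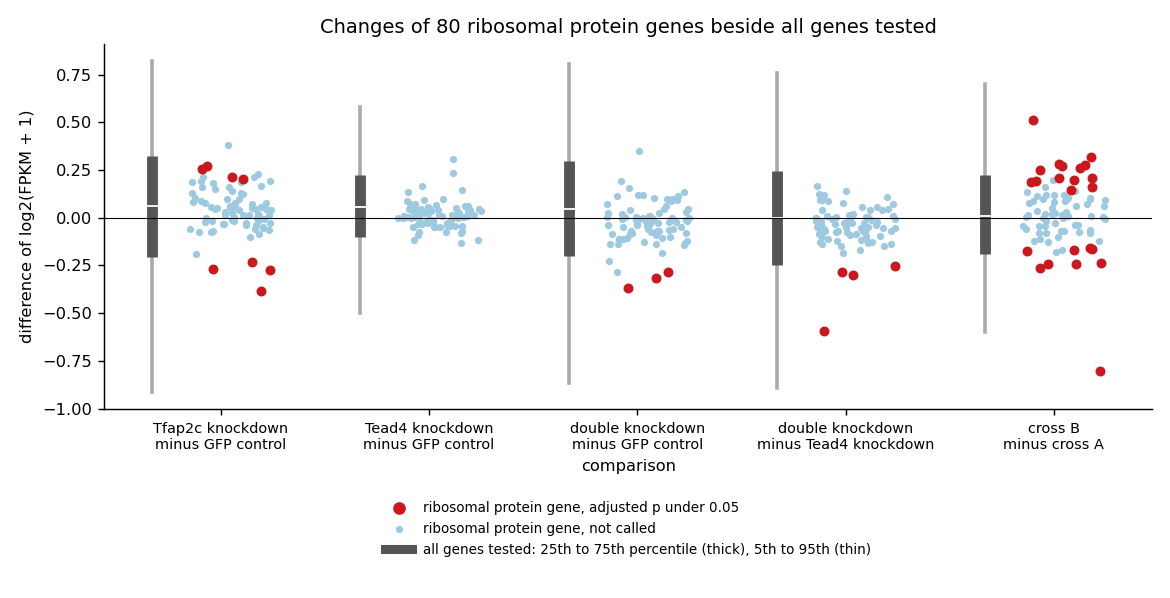
Difference of log2(FPKM + 1) for the 80 genes in 5 comparisons, called genes in red and others in blue, beside the percentiles of all 11422 genes tested (grey bars). Most of the 80 lie within the grey thick bar, 8, 0, 3, 4 and 23 genes are red from left to right, and Rpl29 is the lowest point of the cross comparison.

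The functional parts of the ribosome showed no change that passed in the knockdowns beyond the genes above. The stalk proteins Rplp0, Rplp1 and Rplp2, which recruit the translation factors, had changes of 0.19, 0.15 and 0.19 in the Tfap2c knockdown (adjusted p = 0.0706, 0.363 and 0.0722), 0.071, 0.0086 and 0.090 in the Tead4 knockdown, and 0.19, 0.010 and 0.073 in the double knockdown (adjusted p = 0.0789, 0.962 and 0.532). Without GFP A2 the Tfap2c knockdown changes of Rplp0, Rplp1 and Rplp2 were 0.16, 0.015 and 0.10, those of the Tead4 knockdown 0.033, -0.13 and -0.0026, and those of the double knockdown 0.16, -0.12 and -0.019 (adjusted p of 0.179 or more). Rpl5 and Rpl11, which bind Mdm2, had changes of -0.059 and 0.075 in the Tfap2c knockdown (adjusted p = 0.465 and 0.544), and -0.076 and 0.0026 without GFP A2. Rps6, whose phosphorylation is read as mTOR activity, had a change of 0.054 there (adjusted p = 0.514), and Rpl13a, a common reference gene, 0.016 (adjusted p = 0.907). Without GFP A2 these were 0.026 and 0.038. Rpl41, for which GFP A2 lay far below the other control libraries, had a change of 0.23 (adjusted p = 0.0722), and of 0.14 without GFP A2 (adjusted p = 0.223).

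More of the 80 genes differed between the crosses (8 libraries against 8) than in any knockdown comparison (4 against 4). In cross B, 14 were higher and 9 lower than in cross A, 23 in all (28.8%), where 33.5% of all genes (17.2% higher, 16.3% lower) and 42.2% of the other genes with a mean of at least 500 FPKM passed. The labels give no batch, so cross and batch cannot be told apart. Mitochondrial genes took 8.30% of FPKM in cross B and 10.3% in cross A on average, and their part in these differences was not tested.

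Rpl29, a basic large subunit protein also known for binding heparin, differed most. Rpl29 (chromosome 9, 106428889 to 106431568) had a lowest, median and highest value of 644.2, 866.6 and 936.3 FPKM in cross A and of 387.1, 502.2 and 556.8 FPKM in cross B. The 8 libraries of cross B all lay below the 8 of cross A. The difference was -0.80 (SE 0.091, adjusted p = 2.46e-05 in limma), a cross B level of 0.574 times that in cross A, and it was -0.76 to -0.87 over the fits without 1 library. In the knockdowns Rpl29 had changes of -0.086, -0.049 and 0.11 (Tfap2c, Tead4 and double, adjusted p = 0.669, 0.889 and 0.563).

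Rpl10l and its X-linked relative Rpl10 differed in opposite directions. Rpl10l had 65.7, 79.7 and 111.2 FPKM (lowest, median, highest) in cross A and 90.1, 115.1 and 130.6 FPKM in cross B, a difference of 0.51 (SE 0.071, adjusted p = 0.000112). Rpl10 had 2095, 2449 and 2717 FPKM in cross A and 1650, 2036 and 2370 FPKM in cross B, a difference of -0.24 (SE 0.074, adjusted p = 0.0202). The ranges of each gene overlapped between crosses. As a share of Rpl10, Rpl10l stood at 2.51% to 4.45% in cross A and at 4.57% to 6.94% in cross B, with no overlap. Rpl10 was lost as a call where no filter on low values was used (adjusted p = 0.0561).

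Among the other largest differences, Rps26, at the mRNA exit, had 1410 to 2021 FPKM in cross A and 2087 to 2441 FPKM in cross B (difference 0.32, adjusted p = 0.00130). Rplp2 of the stalk had 1038 to 1528 FPKM in A and 1541 to 1707 FPKM in B (0.28, adjusted p = 0.00138). These 2 genes were higher in all 8 libraries of cross B than in any of cross A, as were 1.29% of all genes, while 2.09% of all genes, Rpl29 among them, were lower in this way (3.38% in all). Rpl38, which acts in the translation of Hox mRNAs (0.28, adjusted p = 0.00822), and Rpl35, near the peptide exit tunnel (0.27, adjusted p = 0.00101), were higher in cross B with overlap. Rpl30 (-0.26, adjusted p = 0.0159) and Rpl39l (-0.24, adjusted p = 0.00699) were lower, and so was Rps12 (-0.24, adjusted p = 0.0483), whose call was lost in 12 of the 16 fits without 1 library (adjusted p up to 0.09999). The other 13 genes had differences between -0.18 and 0.26.

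**Figure D5:**
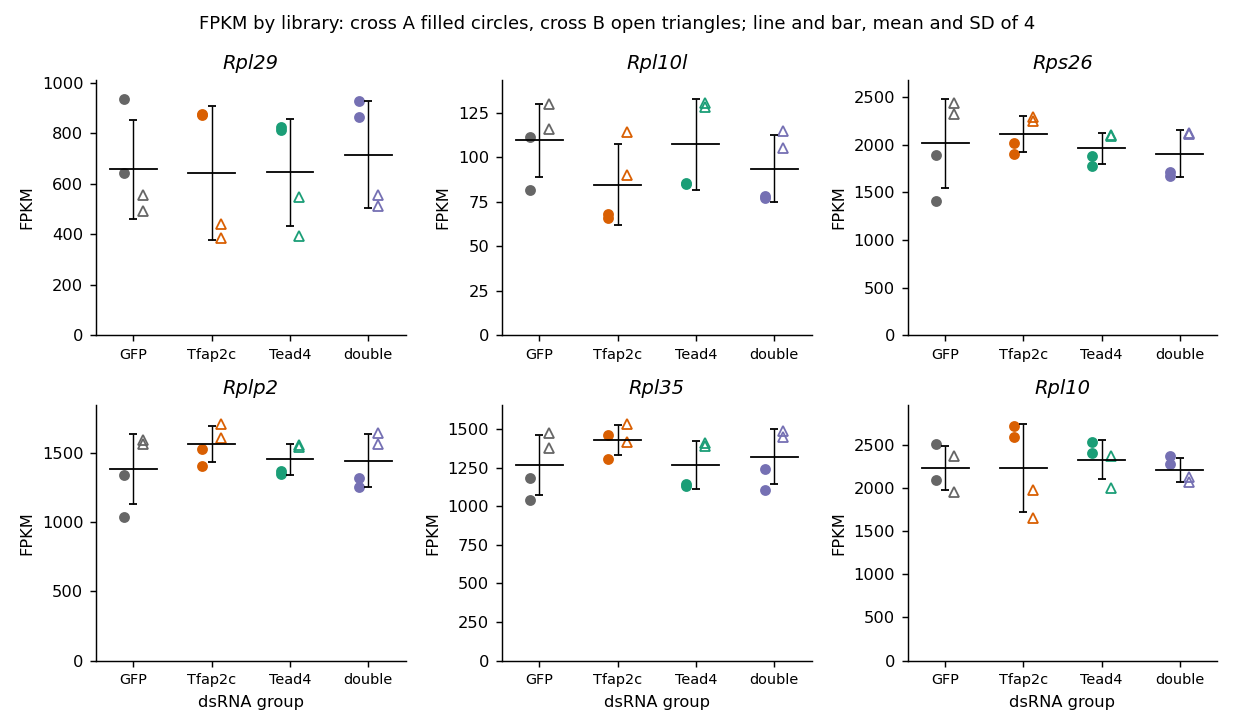
FPKM of 6 genes by dsRNA group and cross, with filled circles for cross A, open triangles for cross B, and the mean and SD of 4 libraries in black. Within each group both libraries of cross B are below both of cross A for Rpl29 and above them for Rps26, Rplp2 and Rpl10l.

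Genes that build ribosomes were read from other lists in the same fit. Of 73 assembly factors, 7 rose and 7 fell in the Tfap2c knockdown, 1 rose and 1 fell in the Tead4 knockdown, 2 rose and 9 fell in the double knockdown against the control, and 2 rose and 16 fell in the double against the Tead4 knockdown. These were 19.2%, 2.74%, 15.1% and 24.7% of the list, against 29.6%, 6.13%, 25.1% and 23.7% of all genes. Without GFP A2, 5 rose and 4 fell in the Tfap2c knockdown, 1 rose and 1 fell in the Tead4 knockdown, and 2 rose and 8 fell in the double knockdown. Their median changes over all libraries were 0.041, 0.088, -0.0050 and -0.064. Wdr12, which acts in large subunit processing with Pes1 and Bop1, fell by 0.74 on the log2 scale in the Tfap2c knockdown (adjusted p = 2.27e-05), by 0.60 in the double knockdown (0.000154) and by 0.79 in the double against the Tead4 knockdown (1.73e-05). Ltv1, of the small subunit precursor, fell by 0.50 in the Tfap2c knockdown (0.000173) and by 0.42 in the double knockdown (0.000794). Nap1l1, a histone chaperone whose mRNA has a TOP tract, rose by 0.44, 0.42 and 0.51 in the same 3 comparisons (adjusted p = 6.50e-05, 0.000121 and 2.49e-05).

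Of 21 RNA polymerase I subunits and factors, 3 rose and 4 fell in the Tfap2c knockdown, 1 rose in the Tead4 knockdown, and 2 rose and 5 fell in the double knockdown against the control. In the double against the Tead4 knockdown 1 rose and 6 fell. These were 33.3%, 4.76%, 33.3% and 33.3% of the list, against 29.6%, 6.13%, 25.1% and 23.7% of all genes. Without GFP A2, 5 rose and 3 fell in the Tfap2c knockdown, 1 rose in the Tead4 knockdown, and 1 rose and 4 fell in the double knockdown. Polr1b, a core subunit, fell by 0.73 in the Tfap2c knockdown (adjusted p = 0.000135) and by 0.52 in the double knockdown (0.00212). In the double against the Tead4 knockdown it fell by 0.63 (0.000532). Polr1e, another subunit, rose by 0.54 in the Tead4 knockdown (0.00392). It fell by 0.35 in the Tfap2c knockdown (0.0143) and by 0.34 in the double knockdown (0.0185).

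Of 25 other genes with TOP mRNAs, 3 rose and 2 fell in the Tfap2c knockdown, 0 passed in the Tead4 knockdown (2 had an unadjusted p under 0.05) and 2 rose and 2 fell in the double knockdown against the control. These were 20% and 16% of the list in the Tfap2c and double knockdowns, below the 29.6% and 25.1% of all genes. Without GFP A2, 2 rose and 1 fell in each of these comparisons, and 0 passed in the Tead4 knockdown. The prefoldin subunit Pfdn5 rose by 0.48 in both the Tfap2c and the double knockdown (adjusted p = 0.000660 and 0.000762), and Tpt1 fell by 0.33 in the Tfap2c knockdown (0.00764). In cross B 1 of the 25 was higher and 8 lower (36% of the list, against 33.5% of all genes, 17.2% higher and 16.3% lower), among them Npm1 (-0.20, adjusted p = 0.000317).

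Of 27 regulators of TOP mRNAs and of ribosomal protein surveillance, 3 rose and 3 fell in the Tfap2c knockdown, 0 passed in the Tead4 knockdown (1 had an unadjusted p under 0.05), and 5 rose and 2 fell in the double knockdown against the control. These were 22.2% and 25.9% of the list in the Tfap2c and double knockdowns, against 29.6% and 25.1% of all genes. Without GFP A2 the Tfap2c count was again 3 and 3, and in the double knockdown 4 rose and 2 fell. The translation repressor Eif4ebp1 fell by 1.15 (adjusted p = 0.00239) and by 1.16 (0.00270) on the log2 scale in the Tfap2c and double knockdowns. Trp53 rose by 0.70 and 0.75 (0.00569 and 0.00402), and Mdm2 by 0.75 and 0.73 (0.00446 and 0.00561), in the same order. Of the 10 genes tested as ribosomal proteins outside the name rule, a list that also held the pseudogene Rps18-ps3 and the binding protein Rps19bp1, Rpl36al fell by 0.23 in the double knockdown against the control (0.0296) and by 0.27 against the Tead4 knockdown (0.0160). In the Tfap2c knockdown Rps19bp1 alone passed (change 0.34, adjusted p = 0.0457), and its call was lost without GFP A2 (adjusted p = 0.0876). The other genes named from these lists kept their calls against the control without GFP A2. All these adjusted p-values are from limma over 11422 genes.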

How the data were processed

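Polyadenylated RNA of 16 pools of mouse embryos was measured by Smart-seq2. The authors deposited 1 table of FPKM for 43496 rows. Per the submitters' processing notes, CASAVA, Trim Galore, STAR and Cufflinks were used with build mm10. For their roles, versions and annotation, and for the handling of reads with several matches, the sources used here say nothing. The 59 rows that repeat an identifier were summed into their gene.

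limma 3.58.1 in R 4.3.3 was fitted on log2(FPKM + 1) with group and cross over all 16 libraries. Genes entered when 4 or more libraries had 1 FPKM or more (11422 genes), with eBayes trend, Benjamini-Hochberg adjustment and a threshold of 0.05. A change is a difference on that scale, and understates that of low genes. Without counts, intervals for depth cannot be given.

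Gene positions are RefSeq's on GRCm38.p6. Named genes were those called against GFP, or the 5 largest rises and falls where over 10 were called (the 3 lowest p where none was), 20 genes always looked up, the 5 highest and lowest by level, the 3 most and least variable in the control, and up to 3 per related list by p. Members and lists were chosen with earlier results of these data known. Alternatives were other pseudocounts, filters, scalings, covariates, single crosses and libraries left out. Adding pseudogenes, using GFP A1 alone and giving related lists and looked-up genes without GFP A2 were chosen after seeing the data. Levels of 1 of the 80 genes and of 1 gene outside the name rule are not reported here singly, though both stay in the counts.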

Additional observations from a re-analysis of the deposited data

Results flagged for a closer look

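In 168 groups of 4 libraries, 40 genes and 2 summed measures, 3 values lay far from the other 3 of their group, where chance gives about 1 in 20. Rpl41 was at 5834 FPKM in GFP A2, against 7664 to 7874 FPKM in the other control libraries. Rps16 was at 1660 FPKM in Tfap2c knockdown B1, against 1984 to 2041 FPKM in the other libraries of that group, and its call in the Tfap2c knockdown was lost without this library. Rps23 was at 959.9 FPKM in Tead4 knockdown B1, against 1029 to 1043 FPKM in the others.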

How the results depend on the processing

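Counts of called ribosomal protein genes moved as follows. The share of all genes called under each setting is not given beside them, so a shift may be shared by genes at large. For the Tfap2c knockdown the 8 calls (4 higher, 4 lower) became 3 without a filter on low values, 5 with median-ratio rescaling (0 higher, 5 lower), 15 with quantile normalization (12 higher, 3 lower), 3 without cross in the model, and 3 in cross A and 3 in cross B alone. Rescaling to 1 sum gave 11 (7 higher, 4 lower). Leaving out 1 library gave 3 (without Tfap2c knockdown B2) to 10, with 4 without GFP B1 or Tfap2c knockdown A1 and 5 without GFP A2, GFP B2 or Tfap2c knockdown A2. For the double knockdown the 3 calls became 5 with median-ratio rescaling (0 higher, 5 lower), 6 with quantile normalization (3 higher, 3 lower), 0 in cross A and 1 in cross B alone, and 1 to 8 without 1 library. Against the Tead4 knockdown the 4 calls became 2 without a filter, 0 in cross A and 0 in cross B alone, and 2 to 4 without 1 library. The non-additive part gave 0 to 1 without 1 library. The cross comparison gave 19 to 33 calls in place of 23. The single crosses have fewer libraries. The cause of the other shifts was not tested.

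The median change in the Tfap2c knockdown was -0.037 with median-ratio rescaling, 0.075 with quantile normalization and -0.021 without GFP A2. No called gene reversed its direction in any alternative run. Rps29 kept its 3 calls in all of them but the single crosses.

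Same-numbered libraries of different groups deviated together little (12 pairs, correlations of -0.165 to 0.176, 2 over 0.1). The 2 over 0.1 were both the GFP control with the Tfap2c knockdown, 0.131 in cross A and 0.176 in cross B. With the replicate block in place of cross, the counts were 7, 0, 3 and 4 for Tfap2c, Tead4 and double knockdown against the control and double against Tead4 knockdown, and the Rpl22 call in the Tfap2c knockdown was lost (adjusted p = 0.0552).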
